A study of Homo sapiens with 6 samples.

Results

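The mitochondrial ribosomal proteins are the nuclear-encoded proteins of the ribosome that works inside mitochondria. All rows whose gene symbol was MRPL or MRPS followed by a number and, in the MRPS18 family, a letter were taken, which gave 78 genes of 61280 rows in the deposited table, 49 named for the large subunit and 29 for the small one, with no symbol repeated. The RNA came from MDA-MB-231, an established human breast cancer line, in 2 groups: cells that had received X-rays at 20 Gy followed by 24 h of culture (3 libraries), and untreated control cells (3 libraries). Both groups were the same line in the same medium with 10% serum, and since no culture time is given for the untreated cells, time in culture and irradiation cannot be told apart. Replicates are numbered, but nothing says that they are separate cultures; the p-values therefore rest on the spread among these libraries alone, and that spread may be technical. In bulk RNA, fewer cells that express a gene and less of its RNA per cell cannot be told apart.

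The mitochondrial ribosome translates only the mRNAs encoded in mitochondrial DNA, all of which specify subunits of the respiratory chain and ATP synthase. Its rRNAs are transcribed in the mitochondrion, while all of its proteins are made in the cytosol from nuclear genes and imported. Many of the proteins have a counterpart in the bacterial ribosome (uniform names that begin with u or b), and the others belong to mitochondria alone (m). The gene names are not a perfect guide to place: MRPS18A and MRPS30 are known from structures to lie in the large subunit (mL66 and mL65), and MRPS36 is now known as a component of the 2-oxoglutarate dehydrogenase complex rather than of the ribosome. A handful of ribosomal proteins carry other symbols and were followed separately.

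All 78 genes were annotated as protein-coding and reached 1 TPM (transcript abundance as a share of the library, corrected for transcript length) in at least 3 libraries, so all were tested. They lay on 21 chromosomes, with no more than 8 on any of them. The labelled cell line was checked against its usual markers: VIM had 1589 ± 8.39 TPM in irradiated cells and 1967 ± 39.3 TPM in control cells, AXL had 146 ± 8.37 TPM in irradiated cells and 186.7 ± 1.79 TPM in control cells, ESR1 and CDH1 stayed at or below a mean of 0.163 TPM in both groups, and PGR was listed at 0 throughout. Both VIM (log2 change -0.31, adjusted p = 0.00479) and AXL (log2 change -0.36, adjusted p = 0.00921) fell in irradiated cells (limma). The other listed markers of the line, CD44 (log2 change 0.060, adjusted p = 0.777) and KRT18 (log2 change -0.046, adjusted p = 0.555), were not called (limma). EPCAM, listed as a low marker, was detected at 8.45 ± 0.146 TPM in irradiated cells and 10.3 ± 0.930 TPM in control cells. ERBB2, which is not amplified in this line, was detected at 26.1 ± 2.89 TPM in irradiated cells and 22.5 ± 1.87 TPM in control cells. Read depth cannot be recovered from TPM. Libraries were similar, with Pearson correlations of log2(TPM + 1) over the tested genes of 0.976 to 0.982 between groups and 0.98 to 0.988 within groups.

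In the promoters of these genes 2 short sequences, which the choice of genes did not use, were more frequent than in those of tested genes. Promoter windows of RefSeq (GRCh38.p14, 250 bases before to 50 after the start of a gene) were at hand for 69 of the 78 genes, and 5 motifs were searched in them on both strands. The core CCGGAAG, which is bound by ETS factors such as GABP, was found in 29 of 69 members (42%), against 19.8% of 10263 promoters of tested genes and 10.7% of all 27305 promoters. The element AAGATGGC, the recognition sequence of YY1, was found in 20 of 69 members (29%), against 5.51% of tested promoters and 3.03% of all. Together, 59.4% of members had at least 1 of these 2 motifs, against 23.9% of tested promoters, and 8 members had both. None of the 5 motifs was found in 22 of the 69 members. No comparison with promoters of genes matched in level or type was made. The palindromic motif of the factor NRF1 was in 11.6% of members and 12% of tested promoters (6.28% of all), so that its share was near the background. The E-box CACGTG was in 8.7% of members, 10.2% of tested promoters and 7.43% of all, and the cyclic AMP response element TGACGTCA was in 0% of members, 3.38% of tested promoters and 1.98% of all. An ETS core and a YY1 element shared bases in 0 of the 69 members and in 3 of the 10263 tested promoters. A match is a description of these letters and not a measured binding site.

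**Figure D1:**
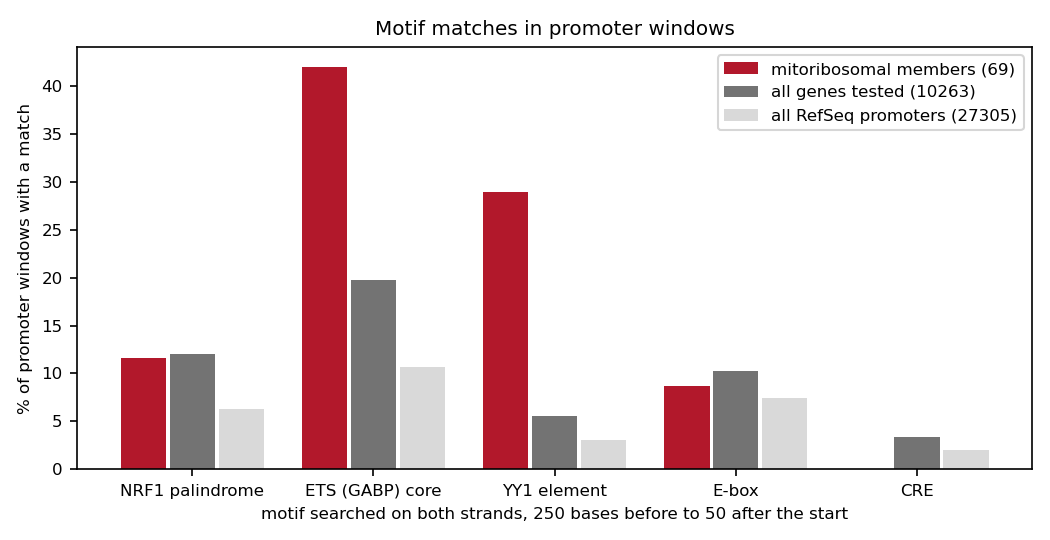
Share of promoter windows with at least 1 match (vertical axis, %) for each of the 5 motifs (horizontal axis), for mitoribosomal members, for all tested genes and for all RefSeq promoters. The ETS core and the YY1 element stand at 42% and 29% in members, against 19.8% and 5.51% in tested genes, while the NRF1 motif is at 11.6% and 12%.

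ETS cores on the strand of the gene are shown for some of the members named below, 5′ to 3′, with the core in capitals. Other named members had cores as well, and MRPL27 and MRPL53 each had another one that is not shown.
MRPL3, chr3:131502988-131503012, minus strand: taaaacgcaCCGGAAGtgggtccgg
MRPL27, chr17:50373177-50373201, minus strand: ttttcgagaCCGGAAGtgagtgatc
MRPL53, chr2:74472737-74472761, minus strand: agccggcggCCGGAAGtctatcccg
MRPS18A, chr6:43687807-43687831, minus strand: cgctacgttCCGGAAGcggaaatgg

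The YY1 elements are shown because most lay within the 50 bases searched after the start. In 15 of the 20 members with the element it lay on the strand of the gene after the start, between positions 7 and 36 downstream with a median of 16; among tested genes with the element, 57.7% had such a match, against 75% of the members. The windows below are from members of both subunits, with the element in capitals.
MRPS24, chr7:43869482-43869507, minus strand: gcttggcccAAGATGGCggcctccgt
MRPS7, chr17:75261889-75261914, plus strand: tggccagccAAGATGGCtgcccccgc
MRPS18A, chr6:43687766-43687791, minus strand: aggtttttgAAGATGGCggccctcaa
MRPS18B, chr6:30617854-30617879, plus strand: gcgtacgtcAAGATGGCggcgtctgt
MRPS27, chr5:72320208-72320233, minus strand: gtacgctccAAGATGGCtgcctccat
MRPL46, chr15:88467364-88467389, minus strand: ggagaacgaAAGATGGCggcgcccgt
MRPL51, chr12:6493225-6493250, minus strand: gtaaggcccAAGATGGCtgtcttcgc

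The mitoribosomal genes held almost the same share of the transcriptome in both groups. Their summed level was 7198, 7596 and 7313 TPM in irradiated replicates 1, 2 and 3, against 7179, 7197 and 7405 TPM in control replicates 1, 2 and 3. The groups overlapped, and their means of 7369 ± 205 TPM in irradiated cells and 7260 ± 125 TPM in control cells (SD, n = 3 each) differed by 1.49%. For the large subunit the sum was 5134 ± 159 TPM in irradiated cells and 5071 ± 67.6 TPM in control cells. For the small subunit it was 2235 ± 49.4 TPM in irradiated cells and 2190 ± 63.5 TPM in control cells. The ratio of the large to the small sum was 2.30, 2.33 and 2.26 in irradiated replicates 1, 2 and 3, against 2.37, 2.30 and 2.28 in control replicates 1, 2 and 3. These ratios overlapped, and the group means of 2.30 ± 0.033 in irradiated cells and 2.32 ± 0.0453 in control cells differed by less than the spread between libraries. With MRPS18A and MRPS30 placed in the large subunit and MRPS36 left out, the ratio was 2.43 to 2.48 in irradiated libraries and 2.43 to 2.53 in control libraries.

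**Figure D2:**
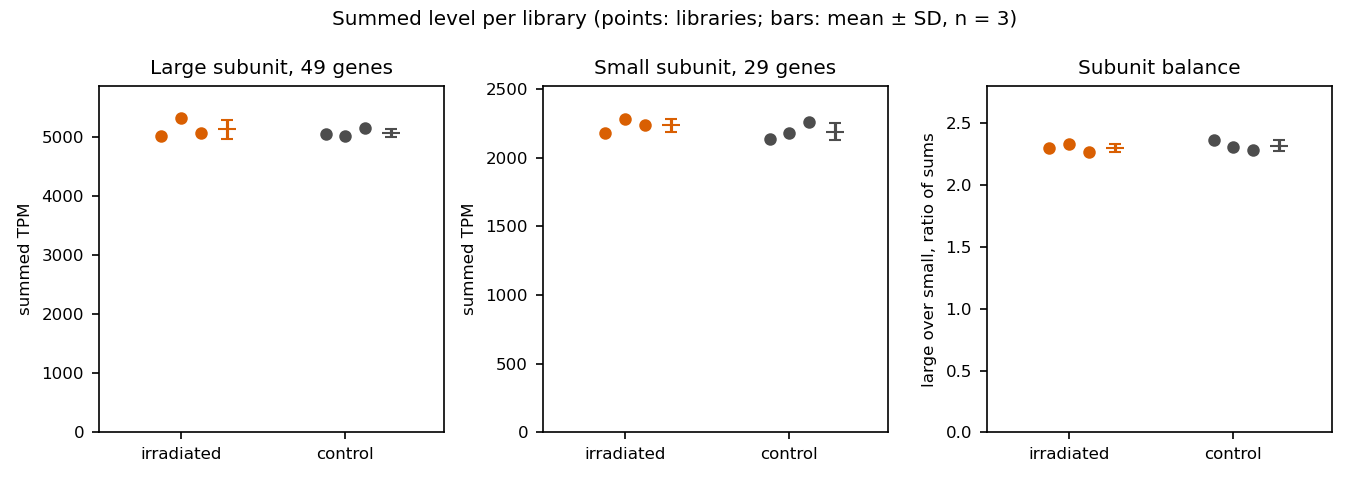
Summed TPM of the large subunit genes (left) and small subunit genes (middle) and the ratio of the sums (right) in each library of irradiated and control cells; points are libraries, bars are mean ± SD of 3. Irradiated and control libraries overlap in every panel, with ratios between 2.26 and 2.37.

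Single genes differed widely in level. Mean levels over the 6 libraries ran from 11.5 to 315 TPM in the large subunit (27.5-fold, median 85.9 TPM) and from 17.05 to 379 TPM in the small subunit (22.2-fold, median 59.4 TPM). In the large subunit the most abundant were MRPL52 (mL52; 307 ± 19.6 TPM in irradiated cells and 323 ± 31.7 TPM in control cells), MRPL51 (mL51; 255 ± 17.1 TPM in irradiated cells and 265 ± 16.9 TPM in control cells) and MRPL33 (bL33; 253.1 ± 18.7 TPM in irradiated cells and 248.7 ± 11.8 TPM in control cells). The 3 lowest were MRPL44, a protein with an RNase III fold (24.3 ± 0.599 TPM in irradiated cells and 25.7 ± 2.39 TPM in control cells), MRPL30 (uL30; 18.1 ± 0.582 TPM in irradiated cells and 17.8 ± 1.29 TPM in control cells) and MRPL50 (mL50; 11.2 ± 0.491 TPM in irradiated cells and 11.7 ± 0.545 TPM in control cells). None of these 6 passed the test (adjusted p of 0.570 to 0.867, limma with Benjamini-Hochberg adjustment).

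In the small subunit MRPS24, the counterpart of bacterial S3 at the mRNA entrance, was highest, with 376 ± 15.4 TPM in irradiated cells and 382 ± 34.0 TPM in control cells. It was followed by MRPS34 (mS34; 161 ± 9.03 TPM in irradiated cells and 162 ± 11.3 TPM in control cells) and MRPS7 (uS7; 140.0 ± 6.96 TPM in irradiated cells and 129 ± 4.73 TPM in control cells). The lowest were MRPS31 (mS31; 25.72 ± 0.876 TPM in irradiated cells and 24.97 ± 1.12 TPM in control cells), MRPS21 (bS21; 18.8 ± 0.874 TPM in irradiated cells and 18.2 ± 1.15 TPM in control cells) and MRPS14 (uS14; 17.4 ± 0.618 TPM in irradiated cells and 16.7 ± 1.53 TPM in control cells). None of these 6 passed the test either (adjusted p of 0.199 to 0.929, limma). Across the 78 genes, Spearman's rho between mean TPM and transcript length was -0.379; this is across genes of the same libraries, and TPM itself divides by length.

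Irradiated cells were compared with control cells for each gene by limma on log2(TPM + 1), over the 14621 genes that reached 1 TPM in 3 or more of the 6 libraries, and a gene was called at an adjusted p (Benjamini-Hochberg over all of them) under 0.05. Of the 78 members 1 rose and 1 fell, 2.56% of them, against 10.6% of all tested genes. Calls upward were 1.28% of members against 6.53% of tested genes, and calls downward 1.28% against 4.07%. Of all 1550 calls 61.6% were upward, against 47.7% with median-ratio scaling and 36.4% once trends with GC content and length were removed. The low share of members rested on the threshold: 8 further members (10.3%) had an adjusted p between 0.05 and 0.07, against 3.56% of tested genes, and at an unadjusted p under 0.05 there were 20 members (25.6%), against 28% of tested genes. The 3 irradiated and 3 control values did not overlap in 26 members (33.3%), against 34.9% of tested genes; irradiated values were all higher in 14 members (background 20.4%) and all lower in 12 (background 14.5%). Once trends with GC content and length were removed, 16.7% of members (0 higher and 13 lower) and 16% of tested genes were called. All member calls of that fit were thus downward, whereas of its 14244 genes 831 were called higher and 1454 lower. When only protein-coding genes were fitted, 12.8% of members (7 higher and 3 lower) and 14.8% of genes were called. Of the 12133 genes of that fit 1105 were called higher and 692 lower. In simulated data with 200 changed genes of any level, the fit recovered 10.4% of log2 changes of 0.3. That share cannot be carried over to the members. The simulation made 114 calls, against 1550 in the data, and members were measured more tightly (median standard error 0.064 against 0.11). Only 1 of the 78 exceeded 0.3. A member that was not called is not shown to be unchanged.

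Changes of the members were small. The median log2 change was -0.0057 over all members, against 0.028 over all tested genes, with a spread between libraries of 0.02 (SD) for the members' median. That median was 0.014 with quantile normalization, 0.0049 without mitochondrially encoded genes, -0.036 with median-ratio scaling and -0.079 with trends of GC content and length removed. The median over all tested genes moved as well, to -0.0085, 0.038, -0.0007 and -0.017 in the same order. With a filter of 5 TPM it was -0.0006, against -0.0057 for the members. As reported, 38 members had a positive and 40 a negative value. The median absolute log2 change was 0.085 in members and 0.15 in tested genes, and 45 of the 78 were within 0.1 of no change. Members were also measured more tightly, with a median standard error of 0.064 against 0.11 for tested genes. They were more abundant as well, with a median level of 80.3 TPM against 13.1 TPM, and no comparison at matched level was made. The median absolute log2 change was 0.078 in the large and 0.087 in the small list of cytosolic ribosomal proteins. The 95% confidence interval of the log2 change lay within ±0.5 for 77 of 78 members (98.7%), against 61.6% of tested genes, and within ±0.25 for 41 members (52.6%), against 16.5%. MRPL41 was the member whose interval passed 0.5.

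**Figure D3:**
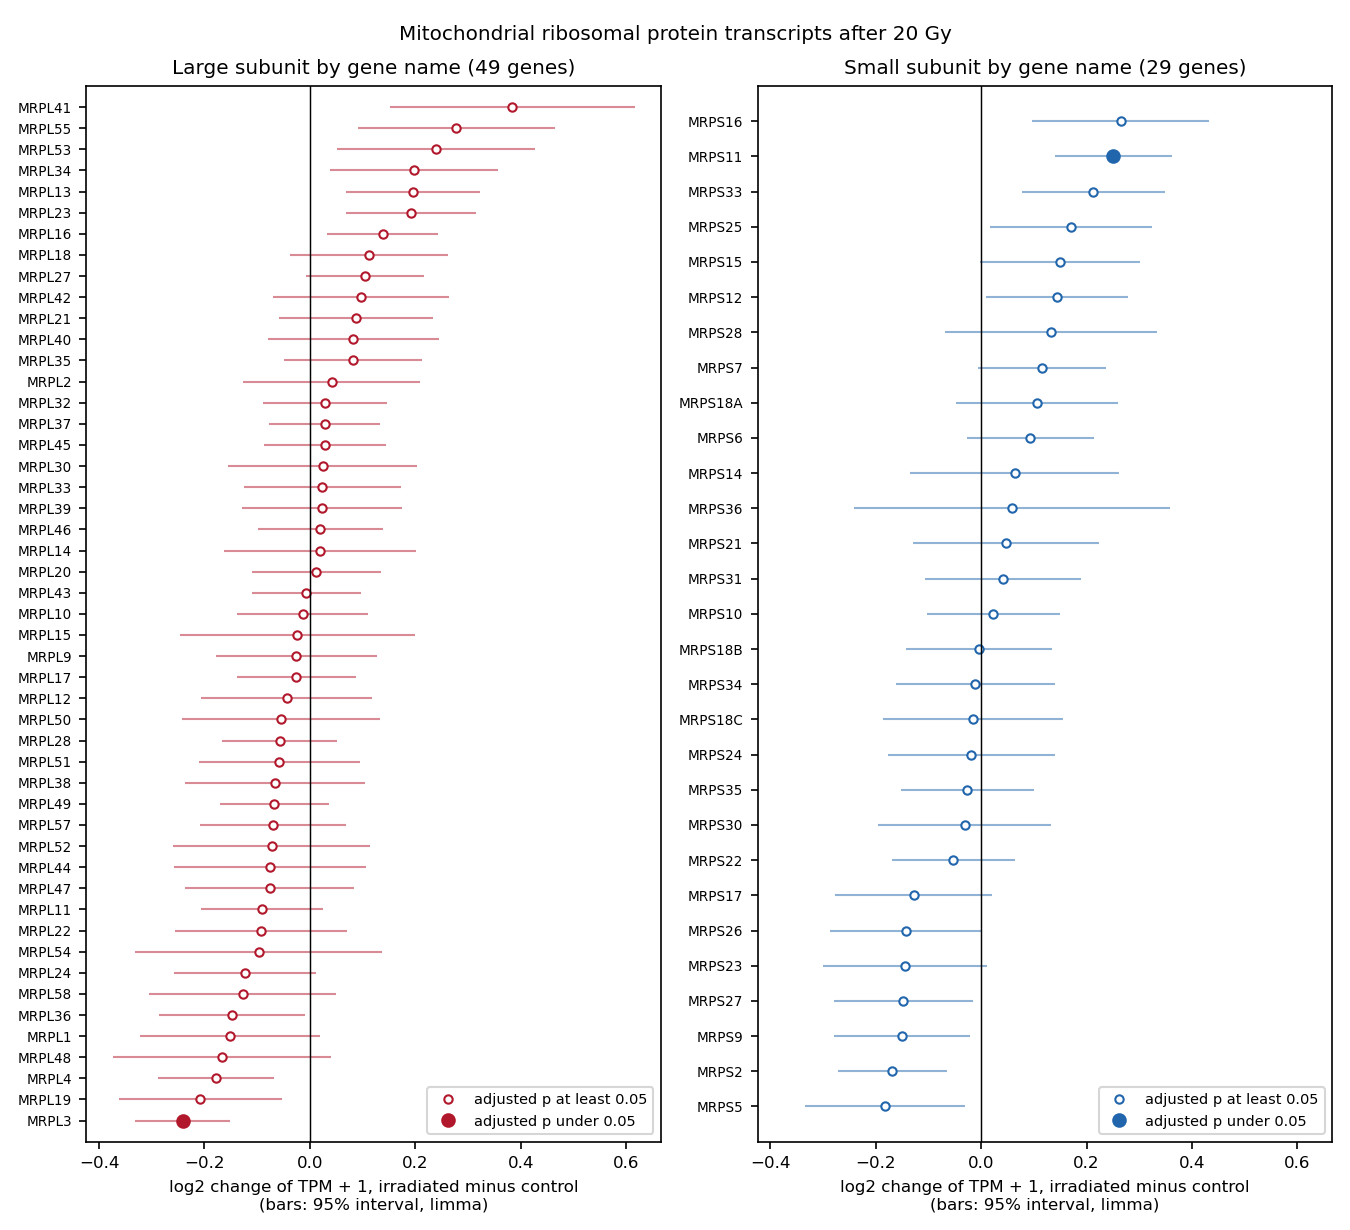
Log2 change of TPM + 1, irradiated minus control (horizontal axis), of each of the 49 large subunit genes (left) and 29 small subunit genes (right), with 95% intervals from limma; filled points passed the adjusted threshold of 0.05. MRPL3 and MRPS11 are the filled points, at -0.24 and 0.25, and the values of both subunits lie on both sides of 0.

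By name, the large subunit had a median log2 change of -0.014 (from -0.24 to 0.38; 23 positive and 26 negative) and the small subunit one of 0.023 (from -0.18 to 0.26; 15 positive and 14 negative). With median-ratio scaling these medians were -0.044 for the large and -0.0075 for the small subunit, and with trends of GC content and length removed they were -0.089 for the large and -0.033 for the small subunit, so the direction of the small subunit depended on the scaling. The difference of the medians, large minus small, was -0.036, and its spread between libraries was 0.024 (SD). Without irradiated replicate 3 it had the other sign, at 0.011, without control replicate 1 it was -0.0098, and with trends of GC content and length removed it was -0.056. No test of the subunits against each other was made. Proteins with a bacterial counterpart had a median of 0.021 over 46 genes (1 higher, 1 lower; 15 at an unadjusted p under 0.05, 32.6%) and the mitochondria-specific ones a median of -0.026 over 31 genes (0 called by limma, 5 at an unadjusted p under 0.05, 16.1%). No test of the classes was made.

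MRPL3, the counterpart of bacterial L3, which contacts the large rRNA near the catalytic centre (ENSG00000114686; chromosome 3, 131462212 to 131502983, hg38), was the member that fell. It had 140, 134 and 136 TPM in irradiated replicates 1, 2 and 3, against 163, 159 and 163 TPM in control replicates 1, 2 and 3. Every irradiated library was below every control library. The log2 change was -0.24 ± 0.038 (SE, adjusted p = 0.0137, limma), a mean 15.5% below the control. It was lost by a narrow margin in 5 of 18 alternatives (without irradiated replicate 3, control replicate 1 or control replicate 2, without a variance trend, and with a replicate block; adjusted p up to 0.0584). The 238 bases before its annotated start, from RefSeq on the minus strand (chr3:131502984-131503221), are shown with the ETS core in capitals.
MRPL3 upstream: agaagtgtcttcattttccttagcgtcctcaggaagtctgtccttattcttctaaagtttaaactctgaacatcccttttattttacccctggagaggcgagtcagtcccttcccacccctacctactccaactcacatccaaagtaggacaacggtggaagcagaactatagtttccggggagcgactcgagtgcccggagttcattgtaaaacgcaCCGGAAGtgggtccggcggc

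Other large subunit genes with negative values came close without passing. MRPL4, whose bacterial counterpart L4 lines the exit tunnel for the new peptide, had 117, 116 and 119 TPM in irradiated replicates 1, 2 and 3, against 133, 126 and 139 TPM in control replicates 1, 2 and 3. These values did not overlap, and the log2 change was -0.18 ± 0.047 (SE, adjusted p = 0.0549, limma); it passed in 5 of 18 alternatives, among them the correction for GC content and length, where it was -0.33. MRPL19, the counterpart of bacterial L19, had 52.5, 48.3 and 46.8 TPM in irradiated replicates 1, 2 and 3, against 60.7, 54.5 and 55.7 TPM in control replicates 1, 2 and 3 (log2 change -0.21 ± 0.066, adjusted p = 0.0896, limma).

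The largest positive value in the large subunit belonged to MRPL41 (mL41; ENSG00000182154; chromosome 9, 137551199 to 137552555, hg38), a mitochondria-specific protein that is also known as a binding partner of BCL2. It had 231, 276 and 249 TPM in irradiated replicates 1, 2 and 3, against 176, 182 and 222 TPM in control replicates 1, 2 and 3. The groups did not overlap, but control replicate 3 lay close to the irradiated libraries. The log2 change was 0.38 ± 0.099 (SE, 95% interval 0.15 to 0.62, adjusted p = 0.0509, limma), and over the 18 alternatives it ran from 0.28 (GC and length trends removed) to 0.49 (without control replicate 3, adjusted p = 0.0278). It passed in 7 of them, and without irradiated replicate 2 it was 0.32 (adjusted p = 0.107). MRPL55 (bL31) had 62.3, 64.4 and 68.4 TPM in irradiated replicates 1, 2 and 3, against 47.7, 58.3 and 54.8 TPM in control replicates 1, 2 and 3 (log2 change 0.28 ± 0.080, adjusted p = 0.0686, limma). MRPL53 (mL53) had 206, 244 and 227 TPM in irradiated replicates 1, 2 and 3, against 194, 174 and 205 TPM in control replicates 1, 2 and 3 (log2 change 0.24 ± 0.080, adjusted p = 0.102, limma). With trends of GC content and length removed, the log2 change was 0.14 for MRPL55 and 0.14 for MRPL53. MRPL23 and MRPL13, the counterparts of bacterial L23 and L13, had log2 changes of 0.19 and 0.20 and no overlap between groups (adjusted p = 0.0602 and 0.0621, limma).

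In the small subunit MRPS11 rose. It is the counterpart of bacterial S11, which forms part of the platform near the mRNA exit (ENSG00000181991; chromosome 15, 88467453 to 88480773, hg38). It had 92.6, 94.9 and 89.3 TPM in irradiated replicates 1, 2 and 3, against 74.57, 78.03 and 79.52 TPM in control replicates 1, 2 and 3. Every irradiated library was above every control library. The log2 change was 0.25 ± 0.047 (SE, adjusted p = 0.0221, limma), a mean 19.2% above the control. This call was lost in 10 of 18 alternatives (adjusted p up to 0.0911), including median-ratio scaling and the correction for GC content and length, and without irradiated replicate 1 or 3 or control replicate 1 or 2; its direction held in all 18.

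MRPS16 (bS16), a gene whose loss causes a human mitochondrial disease, had 81.7, 91.2 and 94.3 TPM in irradiated replicates 1, 2 and 3, against 68.9, 74.4 and 78.6 TPM in control replicates 1, 2 and 3 (log2 change 0.26 ± 0.072, adjusted p = 0.0588, limma). MRPS33 (mS33) had 75.6, 72.5 and 72.1 TPM in irradiated replicates 1, 2 and 3, against 58.7, 65.3 and 65.8 TPM in control replicates 1, 2 and 3 (log2 change 0.21 ± 0.058, adjusted p = 0.0590, limma). Both were without overlap and neither passed. Negative values were found for MRPS5, MRPS2 and MRPS9, the counterparts of bacterial S5, S2 and S9. MRPS2 had 77.8, 82.3 and 77.2 TPM in irradiated replicates 1, 2 and 3, against 89.1, 88.8 and 89.0 TPM in control replicates 1, 2 and 3 (log2 change -0.17 ± 0.044, adjusted p = 0.0537, limma), and with trends of GC content and length removed the log2 change was -0.31 (adjusted p = 0.00387). MRPS5 averaged 42.3 ± 2.36 TPM in irradiated cells and 48.1 ± 2.44 TPM in control cells (log2 change -0.18 ± 0.065, adjusted p = 0.116, limma). MRPS9 averaged 34.9 ± 0.114 TPM in irradiated cells and 38.9 ± 1.79 TPM in control cells (log2 change -0.15 ± 0.055, adjusted p = 0.129, limma).

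**Figure D4:**
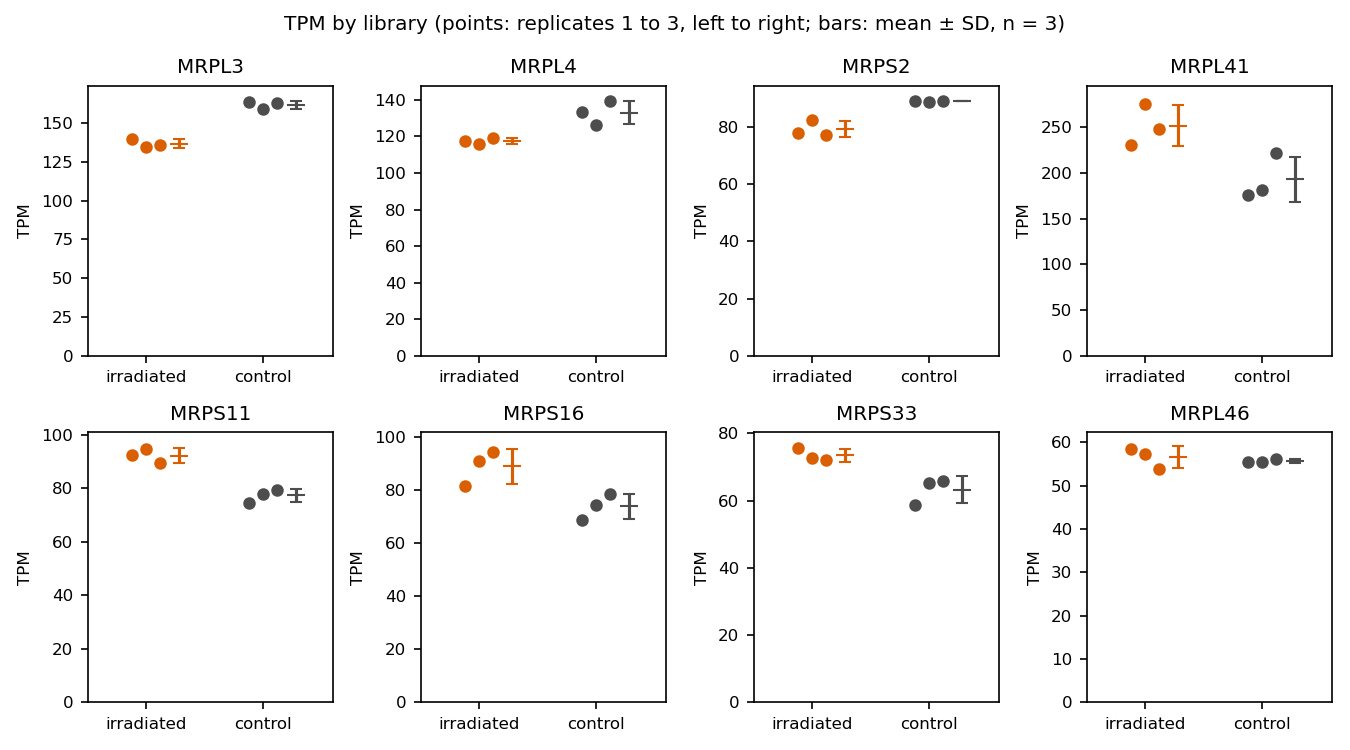
TPM (vertical axes, from 0) of 8 members in each library, irradiated left and control right; points are replicates 1 to 3 and bars are mean ± SD (n = 3). MRPL3, MRPL4 and MRPS2 are lower in every irradiated library, MRPL41, MRPS11, MRPS16 and MRPS33 are higher in every one, and MRPL46 overlaps; of these, MRPL3 and MRPS11 passed the adjusted threshold of 0.05.

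The 3 proteins related to bacterial S18 were expressed side by side and did not pass the test. MRPS18C, the member that takes the place of bacterial S18, averaged 46.5 ± 2.60 TPM in irradiated cells and 47.0 ± 3.58 TPM in control cells (log2 change -0.015, adjusted p = 0.914, limma). MRPS18B (mS40) averaged 52.6 ± 0.777 TPM in irradiated cells and 52.8 ± 3.38 TPM in control cells (log2 change -0.0041, adjusted p = 0.973, limma). MRPS18A, the large subunit protein, averaged 38.5 ± 1.15 TPM in irradiated cells and 35.7 ± 2.42 TPM in control cells (log2 change 0.11, adjusted p = 0.337, limma). MRPS30, the other large subunit protein with a small subunit name, averaged 39.9 ± 3.47 TPM in irradiated cells and 40.7 ± 0.811 TPM in control cells. MRPS36, the 2-oxoglutarate dehydrogenase component, had the least precise estimate of all members (log2 change 0.059 ± 0.13).

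MRPS11 has its nearest neighbour in another member. Its gene start and that of MRPL46 (mL46) are 34 bases apart and point away from each other on chromosome 15 (GENCODE 29, hg38). MRPL46 had 58.5, 57.3 and 53.8 TPM in irradiated replicates 1, 2 and 3, against 55.5, 55.4 and 56.2 TPM in control replicates 1, 2 and 3. These values overlapped (log2 change 0.020 ± 0.051, adjusted p = 0.836, limma). The log2 ratio of MRPS11 to MRPL46 was 0.65, 0.72 and 0.72 in irradiated replicates 1, 2 and 3, against 0.42, 0.49 and 0.49 in control replicates 1, 2 and 3. The ratios did not overlap, and an exact two-sided permutation test over the 20 assignments gave p = 0.1, the smallest that 3 against 3 libraries allow. Because MRPS11 was picked for its call, these values do not test whether the genes of this shared start region changed differently.

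In all, 19 members had a protein-coding neighbour on the other strand whose start lay within 1000 bases upstream or overlapped by under 200. The 16 pairs in which both genes were tested were compared in the same way, and in 5 the log2 ratio of member to neighbour did not overlap between groups, 31.2% of pairs, against 34.9% of tested genes taken singly (p = 0.1 each in the exact permutation test, 0.32 after Benjamini-Hochberg adjustment over the 16). Besides MRPS11 with MRPL46, these were pairs in which the neighbour was called and the member was not. TCP1, a subunit of the cytosolic chaperonin that starts 63 bases from MRPL18, fell to 261 ± 15.5 TPM in irradiated cells, against 313 ± 3.53 TPM in control cells (log2 change -0.26, adjusted p = 0.0221, limma), while MRPL18 had a log2 change of 0.11. EME1, a DNA repair nuclease subunit 6 bases from MRPL27, rose (log2 change 0.51, adjusted p = 0.0313, limma), and MRPL27 had a log2 change of 0.10. PSMA2, a proteasome subunit that overlaps MRPL32 by 23 bases, rose (log2 change 0.25, adjusted p = 0.0471, limma), and MRPL32 had a log2 change of 0.029. TWNK, the mitochondrial DNA helicase that overlaps MRPL43 by 148 bases, fell (log2 change -0.24, adjusted p = 0.0443, limma), and MRPL43 had a log2 change of -0.0073. How strand was handled in counting is unknown here, so reads from overlapping genes cannot be told apart. These calls were lost in 6 (TCP1), 9 (EME1), 12 (PSMA2) and 9 (TWNK) of 18 alternatives.

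Some regulators of nuclear genes for mitochondrial proteins fell. Of 9 listed regulators, 2 fell and 0 rose (limma), so that 22.2% were called lower, against 4.07% of tested genes. In the same fit 3 had an unadjusted p under 0.05 (33.3%, against 28% of tested genes). The median log2 change was -0.25, with 8 negative values and 1 positive one (ESRRA, 0.082). NRF1, a transcription factor known for its sites in nuclear genes for mitochondrial proteins, had 6.61, 7.32 and 7.67 TPM in irradiated replicates 1, 2 and 3, against 9.87, 10.5 and 11.5 TPM in control replicates 1, 2 and 3. Every irradiated library was below every control library (log2 change -0.50 ± 0.099, adjusted p = 0.0243, limma; adjusted p up to 0.0897 among 18 alternatives, 7 of which lost the call, including each fit that left out a library other than irradiated replicate 2). PPRC1, a coactivator of the PGC-1 family, had 39.38, 37.56 and 37.95 TPM in irradiated replicates 1, 2 and 3, against 52.2, 48.6 and 46.8 TPM in control replicates 1, 2 and 3 (log2 change -0.35 ± 0.059, adjusted p = 0.0159, limma; adjusted p up to 0.0625, the call being lost with the replicate block and without irradiated replicate 3, control replicate 1 or control replicate 2). GABPB1, a subunit of the ETS factor GABP, had a log2 change of -0.42 and did not pass (adjusted p = 0.0667, limma), MYC one of -0.091 and YY1 one of -0.029. Members with the NRF1 motif had a median log2 change of -0.0035 over 8 genes, against -0.015 over the other members with a promoter window. Members with the ETS core had a median of -0.0073 over 29 genes, against -0.026 over the others, and members with the YY1 element one of -0.011 over 20 genes, against -0.015 over the others.

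Few of the other ribosomal proteins and of the genes around the ribosome were called. Of the 5 ribosomal proteins DAP3, CHCHD1, AURKAIP1, PTCD3 and GADD45GIP1 0 were called by limma and 0 had an unadjusted p under 0.05, with a median log2 change of -0.0029; PTCD3, an RNA-binding protein of the small subunit, had 107, 73.3 and 103 TPM in irradiated replicates 1, 2 and 3, against 108, 116 and 113 TPM in control replicates 1, 2 and 3, without overlap, and irradiated replicate 2 stood apart from the others (log2 change -0.27, adjusted p = 0.240, limma). Of 29 assembly and rRNA modification factors 1 rose and 1 fell, 6.9% called against 10.6% of tested genes. In the same fit 6 had an unadjusted p under 0.05 (20.7%, against 28% of tested genes). SPG7, a mitochondrial protease, had the largest value of that list and did not pass (log2 change 0.37, adjusted p = 0.0576, limma). MPV17L2, an assembly factor, rose to 35.2 ± 1.40 TPM in irradiated cells, against 29.3 ± 1.39 TPM in control cells (log2 change 0.26, adjusted p = 0.0430, limma; lost in 13 of 18 alternatives). MTERF3, which acts in mitochondrial transcription and ribosome assembly, fell to 23.0 ± 0.80 TPM in irradiated cells, against 28.3 ± 1.44 TPM in control cells (log2 change -0.29, adjusted p = 0.0341, limma; lost in 9 of 18 alternatives). Of 17 mitochondrial translation factors 0 were called by limma, with a median log2 change of 0.025. An unadjusted p under 0.05 was found for 2 of them (11.8%, against 28% of tested genes), without overlap between groups. These were OXA1L (log2 change 0.14, adjusted p = 0.0527, limma) and SLIRP (log2 change -0.20, adjusted p = 0.0762, limma). The most abundant were the RNA-binding protein SLIRP, with 369.5 ± 27.6 TPM in irradiated cells and 423.8 ± 13.8 TPM in control cells, and the elongation factor TUFM with 208 ± 4.44 TPM in irradiated cells and 211 ± 3.34 TPM in control cells. Of 20 genes of mitochondrial aminoacyl-tRNA synthesis 0 were called (limma; 6 at an unadjusted p under 0.05, 30% of them; median 0.060). Among these, FARS2 had a log2 change of 0.30 (adjusted p = 0.130, limma) and HARS2 one of 0.29 (adjusted p = 0.0587, limma). Of 10 genes of mitochondrial DNA transcription and maintenance TWNK alone was called (10%, against 10.6% of tested genes), and 3 had an unadjusted p under 0.05 (30%). TFAM, which packages mitochondrial DNA, had a log2 change of -0.27 (adjusted p = 0.0797, limma).

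The mRNAs that this ribosome translates are encoded in mitochondrial DNA. Of the 13, 1 rose and 0 fell (limma), 7.69% called against 10.6% of tested genes. In the same fit 4 had an unadjusted p under 0.05 (30.8%, against 28% of tested genes), and the median log2 change was 0.11. MT-CO2, a subunit of cytochrome c oxidase, had 10709, 10377 and 9785 TPM in irradiated replicates 1, 2 and 3, against 8530, 8095 and 7518 TPM in control replicates 1, 2 and 3 (log2 change 0.36 ± 0.058, adjusted p = 0.0149, limma; lost with no filter, with median-ratio scaling and without control replicate 2, among 17 alternatives). Their sum was 115293 ± 6399 TPM in irradiated cells and 107743 ± 8733 TPM in control cells, a difference within the spread between libraries. In the cytosolic ribosome, 1 of 79 listed proteins rose (RPS13, log2 change 0.22, adjusted p = 0.0448, limma) and 3 fell (RPS2 at -0.24, RPL28 at -0.16 and RPL5 at -0.16; adjusted p = 0.0178, 0.0494 and 0.0313, limma). Calls made up 4.26% of the large and 6.25% of the small cytosolic list, against 10.6% of tested genes. The 4 calls were lost in 7 to 12 of 18 alternatives. The sum of those 79 was 207899 ± 8730 TPM in irradiated cells and 205723 ± 6221 TPM in control cells.

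**Figure D5:**
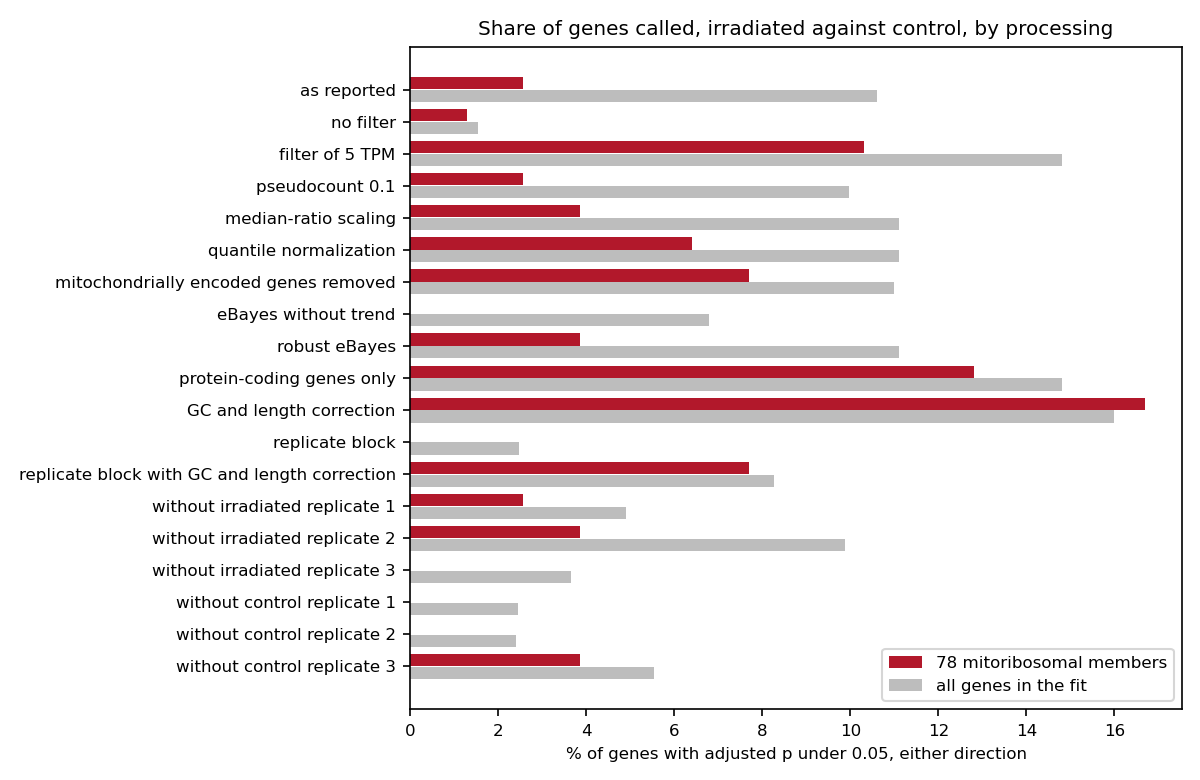
Percentage of genes with an adjusted p under 0.05 in either direction (horizontal axis), for the 78 members and for all genes of the same fit, as reported and under each alternative (rows). Members are below all genes in most rows (2.56% against 10.6% as reported) and reach 16.7% against 16% after the correction for GC content and length. All 13 member calls after that correction were downward.

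Transcripts of the members were shorter than those of tested genes, while the median GC content was close. The principal transcripts of the members had a median length of 1459 bases, against 2830 bases for tested genes, with a median GC content of 49.6% against 48.8%. Across the 78 members Spearman's rho of the log2 change was -0.169 with length and 0.0627 with GC content, and across 14244 tested genes it was -0.164 with length and 0.21 with GC content; these are correlations across genes of the same libraries. Near-identical copies of these genes exist as pseudogenes. The 79 rows with such names summed to 12.5 to 15.7 TPM in irradiated libraries and 11.3 to 12.9 TPM in control libraries, and MRPL45P2 alone exceeded 1 TPM. How reads shared with such copies were counted is unknown, so values of single members may include or lack an unknown number of them.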

How the data were processed

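A TruSeq kit was used for the libraries, per the labels' protocols. HISAT2, StringTie, RSEM and hg38 are named in the submitters' processing notes, with no version and no stated role. What the authors deposited is a gene-level matrix of TPM, in which every library sums to nearly the same total; TPM is a share, so abundant transcripts lower others, and depth is unknown.

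Groups came from sample titles. At most 0.479% of tested values were identical in any pair of libraries. log2(TPM + 1) was fitted with limma 3.58.1 in R 4.3.3 (trended eBayes; residual df 4, prior df 3.39; two-sided tests) with Benjamini-Hochberg adjustment; the pipeline was checked on simulated data. Alternatives were other filters, pseudocount, scalings, variance models and gene sets, GC and length correction (cubic), a replicate block and each library left out. The GC and length correction also recentred every library. Lengths, GC content, types and coordinates (1-based) came from GENCODE 29 on the hg38 assembly.

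Members, lists, motifs and tests were chosen with earlier results of these data known. Named members were those called, the 3 highest and lowest levels and the 3 largest changes each way in each subunit, the MRPS18 family, and up to 3 called genes of other lists or the 2 most abundant. MRPL13, MRPL23, MRPL46, MRPS30, MRPS36, PTCD3, GABPB1, MYC, YY1, VIM and the other line markers were added after seeing values. So were SPG7, OXA1L, FARS2, HARS2, TFAM, the neighbour genes and the promoters shown.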

Additional observations from a re-analysis of the deposited data

How the results depend on the processing

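Counts of calls depended on the processing, and the cause was not tested. As reported, 1550 genes were called over all, and 1 member higher and 1 lower. All genes called were 497 with no filter, 993 without a variance trend and 362 with the replicate block. Members called higher were 0 with no filter, median-ratio scaling, no variance trend, GC and length correction or the replicate block; 2 with robust eBayes; 4 with quantile normalization; 5 with a filter of 5 TPM or without mitochondrially encoded genes; and 7 with protein-coding genes only. Members called lower were 0 without a variance trend or with the replicate block, 3 with a filter of 5 TPM, median-ratio scaling or protein-coding genes only, 13 with GC and length correction, and 5 with that correction and the replicate block together. In either direction, 10.3% of members and 14.8% of all genes were called with a filter of 5 TPM. With that filter, 898 of 10512 genes were called higher and 653 lower. With protein-coding genes only the shares were 12.8% and 14.8%. In that fit, 1105 of 12133 genes were called higher and 692 lower. Of the 18 alternatives, the members' share exceeded that of all genes only with GC and length correction (16.7% against 16%). With 1 library left out, all genes called ranged from 346 to 1414. Members called higher and members called lower each ranged from 0 to 2 in those fits.

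Median log2 changes moved with scaling. Over all members, the large and the small subunit they were -0.0364, -0.044 and -0.0075 with median-ratio scaling and -0.0785, -0.0891 and -0.0327 with GC and length correction, with or without the replicate block, where the large minus small difference was -0.0564. Over all tested genes the median was -0.0007 with median-ratio scaling and -0.0166 with GC and length correction, against 0.0276 as reported. With 1 library left out the small subunit median ranged from -0.0134 to 0.0244 and the large minus small difference from -0.042 to 0.0105; all-member medians ranged from -0.0125 to 0.0091 and large subunit medians from -0.0348 to -0.0024. Placing genes by structure moved none of the 3 subunit values beyond the spread between libraries.

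Of 486 values for 27 named members under 18 alternatives, 415 kept direction and side of the threshold, 15 lost a call (MRPL3 and MRPS11), 29 gained one and 27 changed sign. No value that changed sign was called, and all were within 0.0456 of 0: with GC and length correction, with or without the block, MRPL33 (-0.0137), MRPS21 (-0.0171) and MRPS18A (-0.0327); with median-ratio scaling MRPL30 (-0.005) and MRPL33 (-0.0071); with quantile normalization MRPS18B (0.0098), MRPS34 (0.0145) and MRPS24 (0.0244); without mitochondrially encoded genes MRPS18B (0.0065). Without irradiated replicate 1 these were MRPS18B (0.0016), MRPS24 (0.013) and MRPS34 (0.0325); without irradiated replicate 2 MRPL33 (-0.0235), MRPS18B (0.0023) and MRPS18C (0.0246); without control replicate 2 MRPS18B (0.0189) and MRPS18C (0.0298); without control replicate 3 MRPS14 (-0.0091), MRPL33 (-0.0128), MRPL30 (-0.0319), MRPS18C (0.0009), MRPS18B (0.0261), MRPS24 (0.045) and MRPS34 (0.0456). With 1 library left out these genes ranged up to 0.0644 (MRPL30), 0.0823 (MRPL33) and 0.1115 (MRPS14), and down to -0.0572 (MRPS18B), -0.0761 (MRPS18C), -0.0835 (MRPS24) and -0.0477 (MRPS34).

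Both groups use replicate numbers 1 to 3. Same-numbered libraries did not deviate together (correlations of deviations from the group means 0.03, -0.06 and -0.03), and the fit as reported has no block. Leaving out a control library ended 12 (replicate 1), 13 (replicate 2) and 8 (replicate 3) of the 13 calls named outside the members; leaving out an irradiated library ended 10 (replicate 1), 5 (replicate 2) and 11 (replicate 3). The highest adjusted p of each of the 13 over the alternatives ran from 0.0625 to 0.271. Read depth is unknown, so its share in these limits was not tested.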

Other observations

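Within each group, 1 library held the highest level of many members. Irradiated replicate 2 was the highest irradiated library for 37 of 78 members, against 20 for replicate 1 and 21 for replicate 3. Control replicate 3 was the highest control library for 38 members, against 24 for replicate 1 and 16 for replicate 2. The same libraries had the highest summed level of the 79 cytosolic ribosomal proteins, which took 21.7% of all TPM in irradiated replicate 2 (20% and 20.6% in irradiated replicates 1 and 3) and 21.3% in control replicate 3 (20.1% and 20.4% in control replicates 1 and 2). The 13 mitochondrially encoded mRNAs had their lowest share in irradiated replicate 3 (10.8%) and in control replicate 3 (9.79%).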
